A study of Mus musculus with 8 samples.

Results

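*Fam111a*, *Mal2*, *Celf2*, *Palmd* and *Ptprm* were counted in every control library of NMuMG cells and hardly or not at all in the untreated libraries labelled knockout. NMuMG is a line of normal mouse mammary gland epithelium that loses its epithelial form when it is given TGF-β. The 5 genes were taken by symbol out of the 37310 genes of the count table. They had been chosen by their counts in the control and KO libraries, so this difference between the genotypes is described here with its values and is not tested. Their response to TGF-β in control cells is another contrast than the one they were chosen by, and it is tested, although it too was known from earlier results of these data.

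The study asked what the long non-coding RNA *Lnc-Nr6a1* does in the response of these cells to TGF-β. RNA was sequenced from 8 libraries in 4 groups of 2 replicates: untreated control cells, control cells given 10 ng/ml TGF-β1 for 2 h, untreated cells labelled KO, and cells labelled KO given the same treatment. All cells grew in medium with serum and insulin. The KO cells came from a CRISPR-Cas9 deletion that took part of the promoter and of the first exon from *Lnc-Nr6a1*, after single edited cells had been sorted into wells and grown out. How many such clones the libraries stand for, and whether the control cells had passed through a single cell too, is not given in the sources used here, so genotype and clone cannot be told apart.

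The libraries held between 4297832 and 13574397 counts, the smallest being the first untreated KO library. A floor of 3 counts corresponded to a counts-per-million value (CPM, scaled with TMM factors) of 0.661 in that library and to 0.238 to 0.398 CPM in the others. The transcript of the targeted locus, listed as *Gm13507*, was at 3 and 14 counts in control cells before and at 25 and 35 counts after TGF-β. In the libraries labelled KO it had 11 and 7 counts untreated and none after TGF-β. Its counts thus did not follow the genotype labels in untreated cells. These are counts over the whole annotated gene and not over the deleted part alone. The directions given below are those of the labels. Of the luminal epithelial markers, *Krt8* averaged 2211 CPM in untreated control cells and *Cdh1* 229.4 CPM, whereas *Epcam* had no counts in 7 of the 8 libraries and 2 counts in the other. The summed level of 4 endothelial markers stayed between 0 and 0.846 CPM in every library. The summed fibroblast markers lay between 0.664 and 4.84 CPM, and the summed leukocyte markers between 2.14 and 5.58 CPM.

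Each of the 5 genes acts at a different place in the cell. *Fam111a* encodes a trypsin-like protease that binds the sliding clamp PCNA and works at DNA replication forks. *Mal2* encodes a small protein with several membrane spans and a MARVEL domain, found in lipid rafts, which epithelial cells need to carry cargo from the basolateral to the apical surface. *Celf2* encodes an RNA-binding protein that controls alternative splicing and the stability of messenger RNAs. *Palmd* encodes palmdelphin, a cytosolic relative of the membrane-bound paralemmin. *Ptprm* encodes a receptor-type tyrosine phosphatase whose outer part binds the same protein on the next cell and which associates with cadherins at cell contacts.

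All 5 are annotated as protein-coding genes, each on a chromosome of its own. In the mm9 assembly *Fam111a* (ENSMUSG00000024691.6) spans chr19:12620230-12664258 on the plus strand and *Mal2* (ENSMUSG00000024479.2) spans chr15:54402921-54434401 on the plus strand. *Celf2* (ENSMUSG00000002107.9) spans chr2:6460751-7002348, *Palmd* (ENSMUSG00000033377.8) spans chr3:116621174-116671905 and *Ptprm* (ENSMUSG00000033278.8) spans chr17:67016188-67703799, all 3 on the minus strand. The gene bodies of *Celf2* and *Ptprm* are long, at 541.6 kb and 687.61 kb.

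The bases just before the annotated starts of *Fam111a*, *Ptprm* and *Celf2* show how unlike the start regions of these genes are, in that some are rich in CG dinucleotides and some are poor. They were taken from RefSeq on GRCm38.p6, whose coordinates differ from the mm9 positions above, and the table used holds 3 of the 5 genes. Each line gives the 250 bases upstream of a start, 5′ to 3′ on the strand of the gene, with CG dinucleotides in capitals.
*Fam111a*, start 1, chr19:12573260-12573509, plus strand: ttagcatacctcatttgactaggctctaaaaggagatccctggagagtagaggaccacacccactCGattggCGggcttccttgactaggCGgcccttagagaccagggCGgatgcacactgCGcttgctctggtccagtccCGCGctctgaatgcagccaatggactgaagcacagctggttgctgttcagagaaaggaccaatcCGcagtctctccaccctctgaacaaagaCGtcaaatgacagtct
*Ptprm*, chr17:67354460-67354709, minus strand: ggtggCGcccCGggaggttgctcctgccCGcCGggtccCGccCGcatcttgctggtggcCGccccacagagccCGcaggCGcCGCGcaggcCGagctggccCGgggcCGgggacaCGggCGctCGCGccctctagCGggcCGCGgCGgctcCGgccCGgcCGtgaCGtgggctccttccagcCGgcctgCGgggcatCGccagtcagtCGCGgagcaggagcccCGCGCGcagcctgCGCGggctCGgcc
*Celf2*, start 4, chr2:6872036-6872285, minus strand: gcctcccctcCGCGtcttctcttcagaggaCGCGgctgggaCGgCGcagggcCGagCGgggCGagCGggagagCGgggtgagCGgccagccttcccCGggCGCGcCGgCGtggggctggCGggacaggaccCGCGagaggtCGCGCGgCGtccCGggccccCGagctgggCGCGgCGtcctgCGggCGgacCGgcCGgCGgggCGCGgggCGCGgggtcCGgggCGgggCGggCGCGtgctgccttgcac
*Celf2*, start 1, chr2:7396199-7396448, minus strand: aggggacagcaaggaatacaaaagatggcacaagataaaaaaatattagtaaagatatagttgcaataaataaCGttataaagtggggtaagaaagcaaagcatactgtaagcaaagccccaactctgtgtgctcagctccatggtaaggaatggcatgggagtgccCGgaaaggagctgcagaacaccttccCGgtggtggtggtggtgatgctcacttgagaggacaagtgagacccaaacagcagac

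The *Fam111a* stretch held 9 CG dinucleotides at 54.4% GC, more than 59.7% of the 32851 promoters in the table, whose median was 6. The *Ptprm* stretch held 37 at 81.2% GC, more than 97.8% of promoters. *Celf2* has 5 annotated starts, which ranged from 3 CG dinucleotides at 45.6% GC for start 1 to 43 at 82.8% GC for start 4. On either strand, CAGAC, the letters of the Smad-binding element, were found in neither the *Fam111a* start 1, the *Ptprm* nor the *Celf2* start 4 stretch, and in 1 place in *Celf2* start 1. Of all 8 stretches that the table holds for the 3 genes, 4 held these letters, the others being *Celf2* starts 2 and 3 and *Fam111a* start 2, whose stretch overlaps that of start 1. CAGAC occurs in 42.2% of all promoters. The AP-1 letters TGAGTCA, which are held by 4.5% of all promoters, and the E-box letters CAGGTG, held by 17.2%, were in none of the 8 stretches. TATAAA was in *Celf2* start 1 alone among the 8, against 12.4% of promoters. These are matches of letters, none of these letter strings contains another, and the counts do not tell which start was used.

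*Fam111a*, the replication-fork protease, had 122 and 139 counts in untreated control cells and 188 and 187 after TGF-β. It had no count in any of the 4 libraries labelled KO. Its level in control cells was 15.8 ± 1.59 CPM (SD, n = 2) untreated and 18.7 ± 1.53 CPM after TGF-β. Set against the floor of the shallowest KO library, the control level was at least 23.9-fold higher in untreated cells, and at least 76.6-fold higher in treated cells. The floor behind the second bound is lower, since the treated KO libraries were deeper.

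*Mal2*, the raft protein of apical transport, was also without a count in any KO library. Its counts in control cells were 52 and 67 untreated and 118 and 99 treated, or 7.22 ± 1.35 and 10.8 ± 0.410 CPM (SD, n = 2). The control level was at least 10.9-fold higher than the KO libraries could show in untreated cells and at least 44.1-fold higher in treated cells.

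*Ptprm*, the adhesion phosphatase, was the lowest of the 5 and the third without a count in any KO library. It had 31 and 19 counts in untreated and 32 and 43 in treated control cells, or 3.03 ± 1.00 and 3.77 ± 1.10 CPM (SD, n = 2). At this depth the bounds are lower, at least 4.58-fold in untreated cells and at least 15.5-fold in treated cells.

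*Palmd*, the palmdelphin gene, had 42 and 52 counts in untreated control cells and 140 and 218 in treated ones. In the KO libraries it had none when untreated, and 2 counts and 0 counts when treated. The control level was at least 8.62-fold higher in untreated cells. In treated cells the ratio of the control to the KO level was 221, with a 95% exact counting interval of 60.8 to 1834, which covers counting error only, as do all the bounds given here.

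*Celf2*, the splicing regulator, did not stay silent, and the description of the 5 genes as silent does not hold for it. Its counts in control cells were 151 and 177 untreated and 189 and 143 treated. In the libraries labelled KO it had 1 and 3 counts untreated, but 38 and 34 counts after 2 h of TGF-β. In treated cells its level was thus 16.4 ± 1.82 CPM in control and 2.90 ± 0.279 CPM in KO cells (SD, n = 2), a ratio of 5.70 (95% counting interval 4.41 to 7.46). In untreated cells the ratio was 60.0 (23.2 to 221.5).

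**Figure D1:**
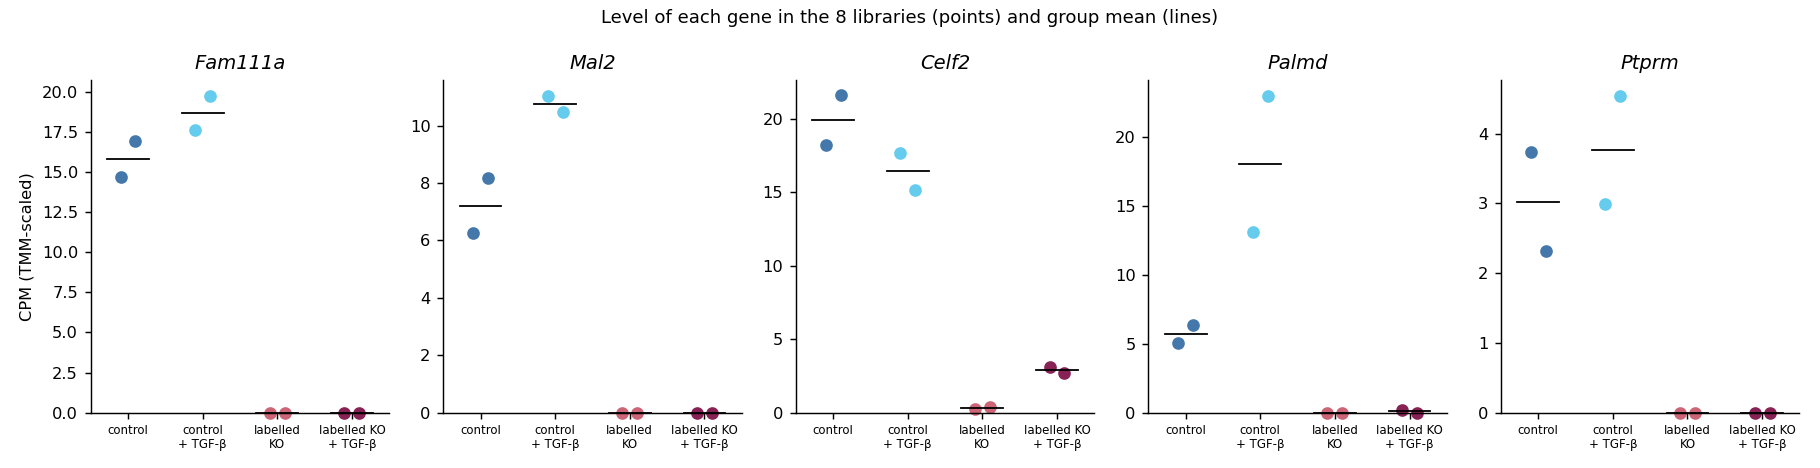
Levels of the 5 genes in CPM in each of the 8 libraries, with a panel for each gene, points for the libraries and black lines for the means of the 2 replicates. The 4 control libraries lie well above 0 in every panel, and of the KO libraries only the treated ones of *Celf2*, at 3.09 and 2.70 CPM, are visibly above 0.

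Per kilobase of annotated exon, the order of the levels in untreated control cells was *Fam111a* (3.84 CPM per kb), *Mal2* (2.60), *Celf2* (1.62), *Palmd* (1.50) and *Ptprm* (0.487). *Celf2*, at 1.48 and 1.76 in its 2 libraries, and *Palmd*, at 1.33 and 1.66, overlapped, and the other neighbours in this order did not. After TGF-β *Palmd* stood first on this scale with 4.74 CPM per kb, but its libraries, at 3.44 and 6.05, spanned those of *Fam111a* (4.53 on average) and of *Mal2* (3.88). These were bulk libraries, in which fewer cells with a transcript and less transcript per cell cannot be told apart.

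The response to TGF-β was tested in control cells with edgeR's quasi-likelihood test over all 13028 genes that passed the filter on low counts, and a gene was called at a Benjamini-Hochberg adjusted p under 0.05 and a log2 fold change beyond 0.5. All 5 genes passed that filter, through the control libraries in which they are high. In this comparison 9.16% of the tested genes were called, 4.69% higher and 4.47% lower. Over all tested genes the log2 fold change had a median of 0.02. The early TGF-β targets responded, with 7 of the 8 treatment-check genes called higher.

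Of the 5 genes, *Palmd* was the one called. It rose from 5.06 and 6.34 CPM in the untreated to 13.1 and 23.0 CPM in the treated control libraries. Its log2 fold change was 1.66 ± 0.43 (SE), a 3.16-fold rise with an edgeR adjusted p of 0.0477, close to the threshold. The treated pair lay far apart. The call was lost without either untreated control library (adjusted p = 0.276 and 0.170, edgeR), without the higher treated one (log2 fold change 1.18, adjusted p = 0.166), without either untreated KO library (adjusted p = 0.0646 and 0.0645), and when only the 4 control libraries were fitted (adjusted p = 0.050). It was kept with DESeq2 (1.66, adjusted p = 0.00865), with limma-voom (1.59, adjusted p = 0.0363) and in edgeR with counts thinned to the smallest library (1.82, adjusted p = 0.0326). The summed level of 5 basal markers, nearly all of it *Krt14*, moved with the treatment as well, from 4.75 to 5.90 CPM in the untreated to 24.0 to 25.7 CPM in the treated control libraries, and its part in the result was not tested.

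The other 4 genes did not pass the test. For *Mal2* the log2 fold change was 0.58 ± 0.34 (SE, adjusted p = 0.323, edgeR). It had 6.26 and 8.17 CPM in the untreated and 11.1 and 10.5 CPM in the treated libraries. *Fam111a* differed by 0.24 ± 0.26 on the log2 scale (adjusted p = 0.608, edgeR), at 14.7 and 16.9 against 17.6 and 19.8 CPM. *Ptprm* differed by 0.31 ± 0.51 (adjusted p = 0.743, edgeR), at 3.73 and 2.32 CPM untreated and 2.99 and 4.54 CPM treated. At these low counts its standard error was the widest of the 5.

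*Celf2* had values after TGF-β that lay in opposite directions in the 2 genotypes. In control cells its level was 18.2 and 21.6 CPM untreated and 17.7 and 15.1 CPM treated, a log2 fold change of −0.28 ± 0.24 (SE) that did not pass the test (adjusted p = 0.496, edgeR). In the libraries labelled KO it went from 0.220 and 0.398 CPM to 3.09 and 2.70 CPM. This second response, a log2 fold change of 3.08, is given as a description with no test, because *Celf2* was chosen for its low counts in the untreated KO libraries, from which the rise is reckoned. Since that side rests on 4 counts in all, the 8.73-fold ratio has a 95% counting interval from 3.27 to 32.9, which does not cover the choice of the gene. The summed basal markers moved with the treatment here as well, from 2.42 to 2.79 CPM in the untreated to 23.9 to 41.9 CPM in the treated KO libraries. Luminal markers lay at 6623 to 6960 CPM untreated and 7930 to 10390 CPM treated, and endothelial ones at 0 to 0.133 and 0.326 to 0.556 CPM. Fibroblast markers overlapped, and leukocyte markers were lower when treated, at 2.14 to 2.44 against 4.18 to 5.58 CPM. The part of these markers in the values was not tested. The difference between the 2 responses was 3.36 on the log2 scale, a description for the same reason.

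**Figure D2:**
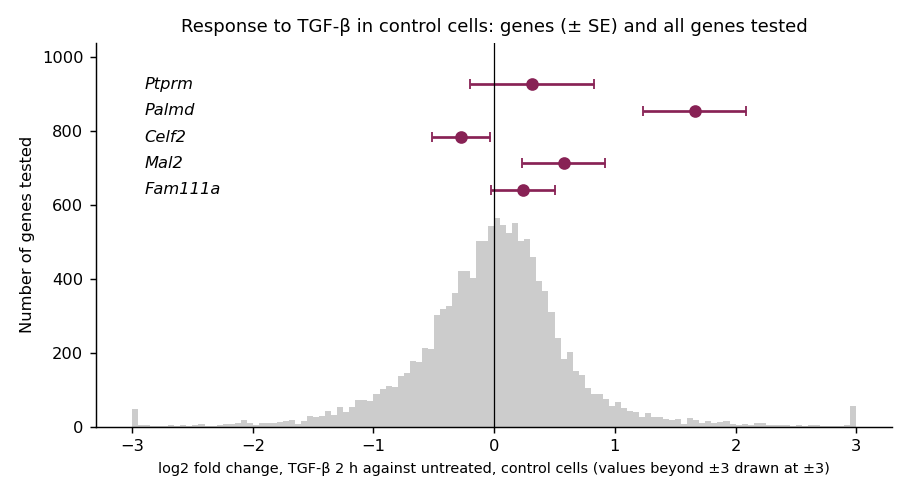
Log2 fold changes after 2 h of TGF-β in control cells, on the horizontal axis, for the 5 genes (points with bars of ± SE) above a grey histogram of all 13028 tested genes, whose numbers are on the vertical axis. *Palmd* lies at 1.66, in the upper tail of the histogram, and the other 4 lie between −0.28 and 0.58, within its bulk.

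Near-identical copies and overlapping genes were looked for, since their reads can be mistaken for those of a gene. The protein-coding transcripts of *Fam111a*, *Mal2*, *Celf2* and *Ptprm* shared no stretch of 75 bases with a protein-coding transcript of another gene. *Palmd* shared 29 of its 3811 such stretches, 0.761%, with *4930455H04Rik*, which lies on the other strand and had 1 count in 1 of the 8 libraries. Within the introns of *Celf2* lies an annotated copy of 7SK, a small nuclear RNA, with 302 to 849 counts in every library. It does not overlap a *Celf2* exon and was not called between the genotypes untreated (log2 fold change 1.20 ± 0.43, SE, adjusted p = 0.231, edgeR) or treated. *Fam111a* overlaps the pseudogene *Gm16274* on the other strand by 592 bases of exon, and that pseudogene had 2 counts in all. Whether the counting used strand is not given in the sources used here, so reads of overlapping genes on opposite strands cannot be separated.

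The tested genes beside the 5 were counted in libraries of both genotypes. Within 500 kb of a gene body of the 5 there were 98 annotated genes, of which 47 had no count in any library and 28 were tested. None of these 28 was called in untreated cells, where 1.83% of all tested genes were called (1.03% higher and 0.798% lower), and their log2 fold changes (KO against control) ranged from −1.13 to 1.20 around a median of −0.15. In treated cells, where 15.0% of all tested genes were called (8.47% higher and 6.57% lower), 2 of the 28 were called, both lower. These were *Dscc1*, which loads the sliding clamp together with other factors, at −1.21 ± 0.29 (SE, adjusted p = 0.0233, edgeR) and 473.3 kb from *Mal2*, and *Dbt*, a subunit of the branched-chain keto acid dehydrogenase, at −1.11 ± 0.20 (SE, adjusted p = 0.00905, edgeR) and 368.3 kb from *Palmd*. Neither was called when only the 4 treated libraries were fitted (adjusted p = 0.104 and 0.0622, edgeR).

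*Frrs1*, 14.5 kb from *Palmd*, is the nearest tested gene outside a member. It had 1470 and 1516 counts in untreated control and 692 and 1041 in untreated KO libraries, a log2 fold change of −0.32 ± 0.13 after scaling (SE, adjusted p = 0.300, edgeR). Around *Palmd* on chromosome 3 the 12 tested neighbours had medians of −0.48 untreated and −0.41 treated. The 28 together, which include these 12, had medians of −0.15 and −0.32. The only one of the 12 at higher coordinates than *Palmd*, *1700061I17Rik* at 91.5 kb, stood at 0.84 ± 0.61 untreated and −0.26 ± 0.52 treated (SE). *Usp6nl*, 93.3 kb from *Celf2*, had 770 and 788 counts in untreated control and 459 and 748 in untreated KO libraries, a log2 fold change of 0.09. *Rab12*, a small GTPase gene 147.1 kb from *Ptprm*, differed by −0.03, and *Taf2*, 412.3 kb from *Mal2*, by −0.16. Beside *Fam111a*, *Dtx4* was at 1.12 ± 0.32 (SE, adjusted p = 0.132, edgeR) in untreated and at 0.21 in treated cells, whereas *Glyat* was at 0.07 untreated and −1.46 ± 0.48 treated (SE, adjusted p = 0.0718, edgeR).

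**Figure D3:**
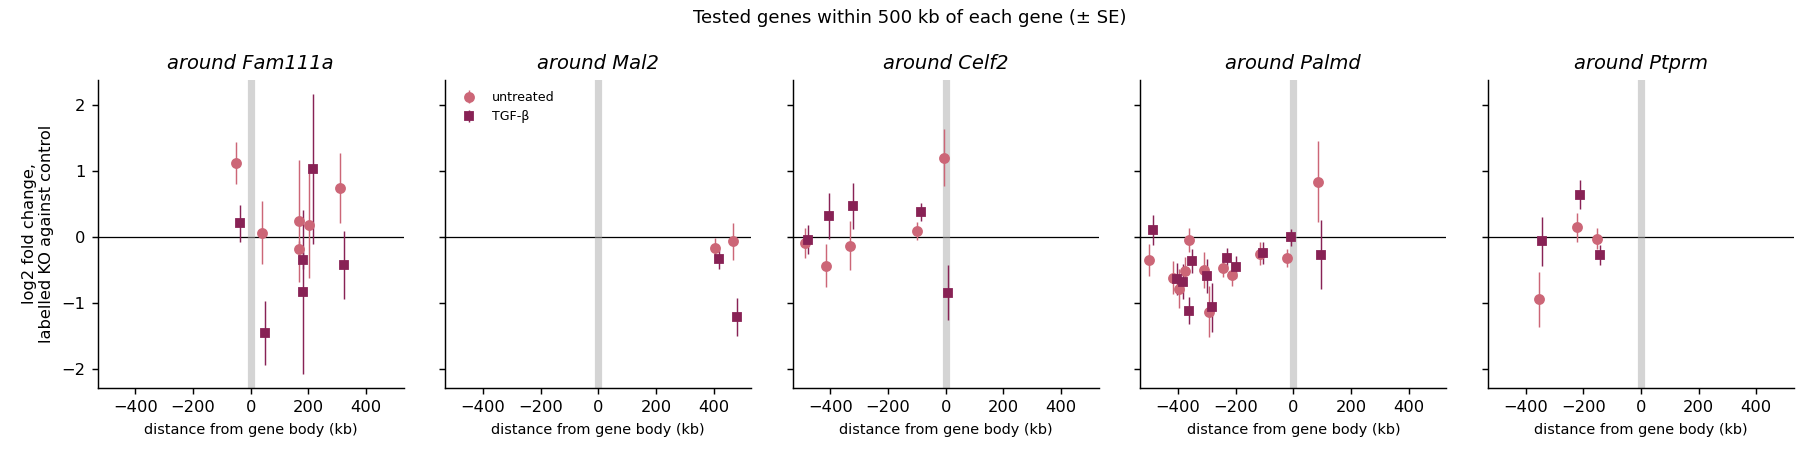
Log2 fold changes (± SE), KO against control, of the 28 tested genes within 500 kb of each of the 5 genes, against the distance from the gene body in kb, for untreated (circles) and treated cells (squares). The grey band marks the gene body, and negative distances lie at lower coordinates. The estimates lie between −1.46 and 1.20, and 2 of them, *Dscc1* and *Dbt* in treated cells, passed the test.

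The relatives of the 5 genes and genes of the same processes were examined in lists that leave the 5 out. In untreated cells no member of any list was called between the genotypes, against 1.83% of all tested genes. The list counts in treated cells stand beside 15.0% of all tested genes called, and those for TGF-β in control cells beside 9.16%. When only the 4 treated libraries were fitted, 3.21% of all tested genes were called. The counts give no evidence of their own about a list, since the lists were drawn up with earlier results known.

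For *Mal2*, 13 of the 17 other MARVEL-domain genes were tested. In treated cells 5 of them were called higher and 1 lower in the KO libraries, with a median log2 fold change of 0.58, and 2, *Mal* and *Pllp*, were called with the 4 treated libraries alone. *Mal*, its closest relative and itself an apical transport protein, had 91 and 32 counts in untreated control and 159 and 145 in untreated KO libraries, and 145 and 80 against 516 and 727 after TGF-β. The log2 fold changes of *Mal* were 1.85 ± 0.47 untreated (SE, adjusted p = 0.0932, edgeR) and 2.17 ± 0.44 treated (SE, adjusted p = 0.0131, edgeR). *Pllp*, the plasmolipin gene, was also higher in treated KO cells (1.53 ± 0.25, SE, adjusted p = 0.00652, edgeR) and *Cmtm8* was lower (−1.31 ± 0.32, SE, adjusted p = 0.0259, edgeR). In control cells given TGF-β, *Marveld1* alone of the list was called, at −0.77 ± 0.14 (SE, adjusted p = 0.0129, edgeR).

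Of 15 partners in transcytosis and apical transport, 12 were tested, and 2 were called higher in treated KO cells. These were *Inf2*, a formin that works with *Mal2*, at 1.13 ± 0.22 (SE, adjusted p = 0.0109, edgeR), and the small GTPase gene *Rab11b*, at 0.79 ± 0.20 (SE, adjusted p = 0.0295, edgeR). Neither was called when the 4 treated libraries were fitted alone. In control cells given TGF-β, where 4.47% of all tested genes were called lower, 2 genes of the list fell, *Rab17* by a log2 fold change of −1.28 ± 0.30 (SE, adjusted p = 0.0314, edgeR) and *Inf2* by −0.91 ± 0.22 (SE, adjusted p = 0.0336, edgeR). The polymeric immunoglobulin receptor gene *Pigr*, a classical cargo of this route, had no count in any library.

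For *Celf2*, the paralog *Celf1* was counted in every library, with 2017 and 2069 counts in untreated control and 992 and 1829 in untreated KO libraries. Its log2 fold changes were −0.10 ± 0.13 untreated and 0.19 ± 0.13 treated (SE, adjusted p = 0.770 and 0.350, edgeR). The other CELF genes were at or near 0, and *Celf4* had the most, with 1 to 21 counts. Among 12 tested splicing regulators of 16, *Ptbp2* was called lower in treated KO cells (−0.83 ± 0.22, SE, adjusted p = 0.0323, edgeR) and *Esrp2*, an epithelial splicing regulator, higher (0.69 ± 0.20, SE, adjusted p = 0.0464, edgeR). Neither was called with the 4 treated libraries alone (adjusted p = 0.108 and 0.109, edgeR). *Esrp1* was listed at 0 in all 8 libraries.

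For *Ptprm*, the closest relative counted in these cells was *Ptprk*, with 1902 and 2084 counts in untreated control and 1173 and 2024 in untreated KO libraries. It differed by 0.13 ± 0.13 untreated and 0.10 ± 0.13 treated (SE, adjusted p = 0.708 and 0.647, edgeR). The other members of that subfamily, *Ptprt* and *Ptpru*, had at most 9 and 13 counts in a library. Of 9 tested receptor phosphatases of 16, 2 were called higher and 1 lower in treated KO cells. *Ptprf* stood at 1.52 ± 0.22 (SE, adjusted p = 0.00353, edgeR) and *Ptprs* at 0.91 ± 0.20 (SE, adjusted p = 0.0167, edgeR). *Ptprd* was lower, with 24 and 37 counts in treated control and 1 and 2 counts in treated KO cells (−4.52 ± 0.88, SE, adjusted p = 0.0116, edgeR). With the 4 treated libraries alone *Ptprf* and *Ptprd* were called and *Ptprs* was not (adjusted p = 0.0774, edgeR). After TGF-β in control cells *Ptprf* alone of the list was called, at −0.90 ± 0.21 (SE, adjusted p = 0.0322, edgeR).

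Of the cadherins and catenins, to which *Ptprm* binds or which it keeps company with at cell contacts, 6 of 7 were tested. The plakoglobin gene *Jup* (1.24 ± 0.13, SE, adjusted p = 0.00101, edgeR) and the E-cadherin gene *Cdh1* (0.61 ± 0.17, SE, adjusted p = 0.0433, edgeR) were called higher in treated KO cells, and of these *Jup* but not *Cdh1* was called with the 4 treated libraries alone. The p120-catenin gene *Ctnnd1* rose in control cells given TGF-β, by 0.59 ± 0.13 (SE, adjusted p = 0.0295, edgeR).

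For *Palmd*, paralemmin itself, *Palm*, was the relative with the most counts, 243 and 136 in untreated control and 201 and 264 in untreated KO libraries. After TGF-β it had 133 and 124 counts in control and 355 and 383 in KO libraries, where it was called higher (1.21 ± 0.26, SE, adjusted p = 0.0171, edgeR), also with the 4 treated libraries alone. *Palm2* had no count and *Palm3* had 1 to 9 counts in a library.

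For *Fam111a*, all 12 genes of a list of general replication-fork genes were tested, and 6 of them were called lower and none higher in treated KO cells. The median log2 fold change of the list was −0.66 in treated and −0.09 in untreated cells. *Rpa3*, a subunit of the single-strand binding complex, stood at −1.19 ± 0.27 (SE, adjusted p = 0.0185, edgeR), and the clamp-loader genes *Rfc3* and *Rfc5* at −0.92 ± 0.17 and −0.89 ± 0.17 (SE, adjusted p = 0.00904 and 0.0112, edgeR). None of the 12 was called when the 4 treated libraries were fitted alone. None was called after TGF-β in control cells either.

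**Figure D4:**
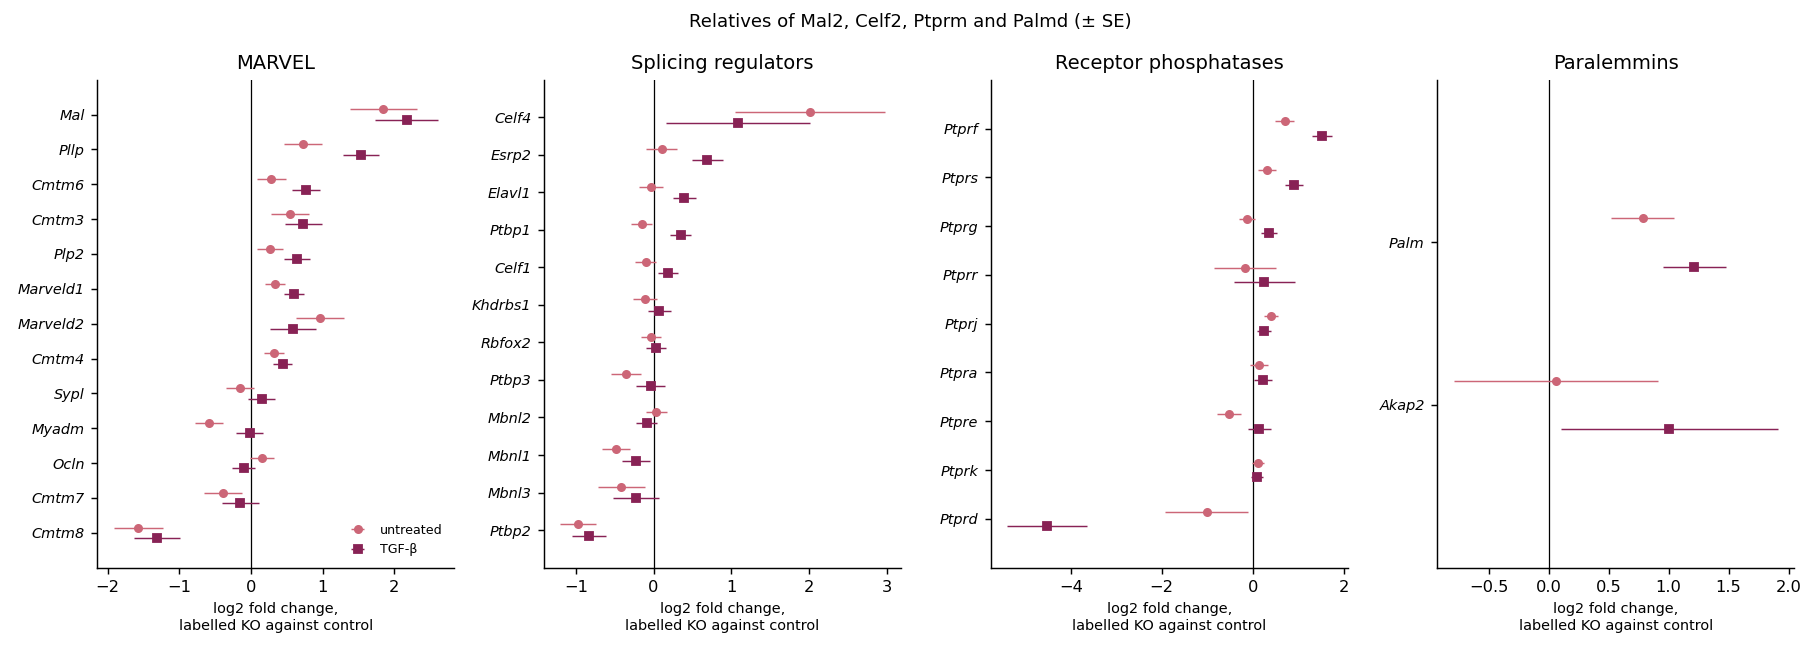
Log2 fold changes (± SE), KO against control, of the tested relatives of *Mal2*, *Celf2*, *Ptprm* and *Palmd*, untreated (circles) and treated (squares), on a separate horizontal scale for each panel. *Mal* and *Palm* lie above 0, whereas *Celf1* and *Ptprk* lie within 0.19 of 0 in both conditions.

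The presence of counts in all control and their absence from all KO libraries was a rare pattern. Of 11703 genes with at least 10 counts in each of the 4 control libraries, 25 had at most 3 counts in each of the 4 KO libraries, or 0.214%. Among the 25 were *Fam111a*, *Palmd*, *Mal2* and *Ptprm*, but not *Celf2*, which exceeded the limit in the treated KO libraries. By mean control level *Fam111a* had rank 1 of the 25 (17.2 CPM over the 4 libraries), *Palmd* rank 2 (11.9), *Mal2* at rank 4 (8.99) and *Ptprm* at rank 17 (3.40). These ranks pool untreated and treated control libraries, and in untreated cells alone *Palmd*, at 5.70 CPM, was below *Mal2*, at 7.22 CPM. The 5 other genes with the highest control levels were *Dsg2*, *Vgll3*, *Zfhx4*, *Ephb1* and *Pde3b*, between 9.37 and 6.15 CPM. No count in any KO library was found for 9 of the 25, with *Fam111a*, *Mal2* and *Ptprm* among them. The 25 lay on 14 chromosomes. The converse pattern, with the genotypes exchanged, was met by 4 genes. Both limits are raw counts, and the untreated KO libraries, at 4297832 and 7181737 counts, were shallower than every control library. In them at most 3 counts was easier, and at least 10 counts harder, to meet than in the control libraries. The 25 and the 4 are therefore not set against each other.

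In the untreated libraries alone, 64 genes, the 5 included, had at least 10 counts in both control and at most 3 in both KO libraries. Of these, 11 had at least 10 counts in both treated KO libraries, and *Celf2* was 1 of the 11. Its 38 counts were the highest of the 11 in the first treated KO library, and in the second its 34 were exceeded by *Nes* with 66. The treated KO libraries held 12761749 and 13574397 counts, against 4297832 and 7181737 in the untreated ones, so the untreated ones were shallower. With all libraries thinned to the smallest total, the log2 fold change of *Celf2* in KO cells was 2.87, against 3.08 at full depth. Fold changes are already scaled for library size, so this value does not show whether the count limits were met through depth. It also uses the untreated KO counts by which *Celf2* was chosen. The part of depth in the counts of the 11 genes was not tested.

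The genes whose profile over the 8 libraries was most like the mean profile of the 5 were *Zfp422* (Pearson r = 0.992), *Serpina1b* (0.990), *Pde3b* (0.990), *Peg3* (0.989) and *Fam65b* (0.989). The 5 themselves had r between 0.899 for *Celf2* and 0.995 for *Fam111a* with that mean, and *Celf2* was the least like the rest. High values were built in, since the mean holds the 5 genes and they were chosen by counts in the same libraries. *Peg3*, a paternally expressed zinc finger gene, had 1971 and 1391 counts in untreated and 2776 and 3259 in treated control libraries. In the KO libraries it had 29 and 80 counts untreated and 117 and 70 treated. It was thus much lower there but still counted, unlike *Fam111a*, *Mal2* and *Ptprm*. *Zfp422* too was counted in every KO library, at 35 and 61 counts untreated and 84 and 95 treated. Its control libraries had 200 to 331 counts. Pearson r does not measure the size of the difference.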

How the data were processed

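RNA-seq libraries of NMuMG cells, 2 replicates in each of 4 groups, were analysed. The authors deposited a table of raw counts of reads per gene, without normalization, for 37310 genes and 8 libraries. The submitters' processing notes name HISAT2, limma and mm10, whereas the paper's methods name subjunc, duplicate removal with samtools and DESeq2, and the counting tool and strand setting are not given in the sources used here. The labels and the paper also differ on the library kit and the sequencer. The gene identifiers match GENCODE on mm9, from which positions, symbols and exon lengths were taken. Only the paper calls the replicates biological, and it does not say whether they were separate cultures. The p-values measure the spread between these libraries.

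Counts were scaled with TMM factors and tested in R 4.3.3 with edgeR 4.0.16 (quasi-likelihood test, 1 model of the 4 groups over all 8 libraries, 4 residual degrees of freedom) after filterByExpr, which left 13028 genes. P-values were adjusted by Benjamini-Hochberg over all genes tested, and genes were called at an adjusted p under 0.05 and an absolute log2 fold change above 0.5, without a replicate block. CPM values use library sizes scaled by these factors. In simulated counts of TGF-β in control cells, run on 13028 genes, 54 of 100 genes with a log2 change of 1, and 96 of 100 with one of 2, were recovered, with 12 false calls. Against groups without counts, folds were computed as bounds from a floor of 3 counts in the shallowest library of the group. Ratios carry exact 95% counting intervals. Alternatives were DESeq2 1.42.0, limma-voom with limma 3.58.1, other size factors, other filters on low counts, thinned counts, the replicate block, the 4 libraries of a comparison alone, and each library left out.

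The 5 genes and all lists were chosen with earlier results of these data known. From each list at most the 3 called genes with the largest log2 fold change per comparison were named, with the closest paralogs *Mal*, *Celf1*, *Ptprk* and *Palm*, the nearest tested neighbours and those called, the 5 further genes with the same pattern and the highest control level, and the 5 most alike. Genes of a list that had no or few counts, and *Ptprd* among 2 rows of that symbol (the higher was used), were named as such.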

Additional observations from a re-analysis of the deposited data

Results flagged for a closer look

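*Celf2* drew attention because its values after TGF-β lay on opposite sides in the 2 genotypes. Both treated control libraries were below both untreated ones, and both treated libraries labelled KO were above both untreated ones. The change in control cells, a log2 fold change of −0.28, did not pass the test (adjusted p = 0.496, edgeR). How many of all tested genes had such opposite values was not counted. The log2 fold change in KO cells minus that in control cells was 3.36. No test of this difference is given, since *Celf2* was chosen for its low counts in the untreated KO libraries, which enter it.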

How the results depend on the processing

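The log2 fold changes of *Fam111a*, *Mal2* and *Celf2* in control cells after TGF-β kept their sign and stayed uncalled in all 16 alternatives each, with ranges of 0.13 to 0.35, 0.40 to 0.78 and −0.40 to −0.15 when single libraries were left out. That of *Celf2* was −0.53 with counts thinned to the smallest library. That of *Ptprm* changed sign once, to −0.0365 without the second treated control library, in a range up to 0.70. The rise of *Palmd* kept its direction, from 1.18 to 2.01 with single libraries left out, of which 3 of 8 kept the call, and 9 of all 16 alternatives kept it. It was not called with the 4 control libraries alone (1.66, adjusted p = 0.050, edgeR). With the replicate number as a block it stood at 1.63 (adjusted p = 0.0720, edgeR). The log2 fold change of *Celf2* in KO cells, which was described and not tested, ranged from 2.82 to 3.64 with single libraries left out.

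Genes called between the untreated genotypes numbered 238 in the analysis reported, 428 with DESeq2, 137 with limma-voom, 756 without the filter, 804 with 4 libraries alone, and 41 to 393 with single libraries left out. The 1959 called between treated genotypes became 410 with 4 libraries alone and 486 to 2790 with single libraries left out. The 1194 called for TGF-β in control cells became 2021 without the filter, 470 with 4 libraries alone and 139 to 1479 with single libraries left out. The cause of these shifts was not tested.

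Equal replicate numbers did not mark a stated pairing, and the deviations of same-numbered libraries correlated at 0.296 for TGF-β in control cells, 0.0935 between untreated and −0.467 between treated genotypes. The replicate block gave 831, 150 and 1490 called genes in these comparisons. With the numbers of the treated KO libraries exchanged, the last count was 2809, chosen after seeing the data. The block changed no other call of the 5 genes. Depth limits *Ptprm* most, at 19 to 43 counts in a control library.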
